A study of Mus musculus with 4 samples.

Results

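The genes described here encode the proteins of the mitochondrial ribosome. They were taken as the rows whose symbol is Mrpl or Mrps followed by a number and, in some, a letter, and 78 of the 13792 genes listed in the RNA files matched. Of these, 49 are named for the large subunit (Mrpl) and 29 for the small subunit (Mrps). All 78 identifiers carried the same symbol in the reference tables, and all 78 symbols of this form in the RefSeq gene table of the mouse were present in the files.

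RNA had been measured in 2 libraries of naive B cells from C57BL/6 mice, a common inbred strain. After infection with the RVKM retrovirus the cells were grown with anti-IgM and anti-CD40, which stimulate the B cell receptor and the CD40 receptor. The virus of the first library carried no insert (RVKM-Empty, the empty vector), and that of the second carried Ascl2 (RVKM-Ascl2), a basic helix-loop-helix transcription factor. The sources used here do not give the number or age of the mice, the time in culture or any sorting of infected cells. There was 1 library per group, so no value has a replicate error, no difference has a replicate check and no p-value was computed. The series also holds 2 chromatin samples of GC B cells, which were not analysed here.

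The mitochondrial ribosome translates the few messenger RNAs of the mitochondrial genome, all of which encode core subunits of the respiratory chain and the ATP synthase. Its RNA comes from the mitochondrial genome, but its proteins are encoded in the nucleus, made in the cytosol and imported. Some of these proteins descend from those of the bacterial ribosome and others were added in mitochondria. B cells that leave the resting state enlarge their mitochondria and their respiration, for which this ribosome is needed.

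The deposited value is a signal per gene, treated here as an abundance scaled for sequencing depth. The files do not name the unit. Of 1923 values under 1 in the empty-vector library 1905 were distinct, as were 1767 of 1793 in the Ascl2 library. Whole-number counts scaled for depth alone would repeat more, but fractional counts need not, so the unit is not settled by this. The values are treated here as also scaled for gene length, and levels of different genes are compared on that assumption. The listed values summed to 750692 for the empty vector and to 763932 for Ascl2. The Ascl2 gene itself was at 0.0809 and 29.4, which goes with the labels. All 6 B cell markers checked were present, from 98.4 to 748 with the empty vector and from 97.7 to 626 with Ascl2. Of 5 T cell markers none had a row. The 4 myeloid markers with a row, of 5, summed to 23.2 and 29.4, the 3 of 5 erythroid markers to 5.17 and 3.63, and the 2 of 4 fibroblast markers to 0.536 and 1.004.

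The starts of 6 members are shown because they stand at the ends of the order described below or are shared by 2 members. Each line gives 170 bases before the start and 30 from it on, 5′ to 3′ on the gene's own strand, from the RefSeq promoter table on GRCm38.p6, a release of the assembly also called mm10. Capitals mark a match to 1 of the 5 motifs searched. Mrpl2 and Mrps12 had the lowest ratios of their subunits. Mrps11 and Mrpl46 start 42 bases apart on opposite strands. Mrpl32, Mrpl35 and Mrpl47 had the highest ratios. For Mrpl2 the first of 3 listed starts is shown.
Mrpl2 (chr17:46646051-46646250, plus strand): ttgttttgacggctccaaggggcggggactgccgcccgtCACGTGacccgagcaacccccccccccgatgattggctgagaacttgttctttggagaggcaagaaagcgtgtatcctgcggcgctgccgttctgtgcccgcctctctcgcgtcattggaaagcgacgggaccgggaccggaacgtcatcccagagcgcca
Mrps12 (chr7:28741792-28741991, minus strand): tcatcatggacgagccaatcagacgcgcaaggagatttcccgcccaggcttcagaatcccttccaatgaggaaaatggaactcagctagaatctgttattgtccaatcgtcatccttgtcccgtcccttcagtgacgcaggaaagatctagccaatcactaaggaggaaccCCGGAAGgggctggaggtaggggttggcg
Mrps11 (chr7:78782961-78783160, plus strand): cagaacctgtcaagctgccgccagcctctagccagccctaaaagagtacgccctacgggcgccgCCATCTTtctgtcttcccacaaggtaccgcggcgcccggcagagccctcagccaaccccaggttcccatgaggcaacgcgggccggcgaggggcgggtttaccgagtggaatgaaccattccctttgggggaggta
Mrpl32 (chr13:14613008-14613207, minus strand): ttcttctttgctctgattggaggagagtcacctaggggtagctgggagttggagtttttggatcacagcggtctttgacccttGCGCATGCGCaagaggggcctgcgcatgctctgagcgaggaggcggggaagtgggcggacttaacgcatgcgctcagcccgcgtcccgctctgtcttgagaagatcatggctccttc
Mrpl35 (chr6:71823755-71823954, minus strand): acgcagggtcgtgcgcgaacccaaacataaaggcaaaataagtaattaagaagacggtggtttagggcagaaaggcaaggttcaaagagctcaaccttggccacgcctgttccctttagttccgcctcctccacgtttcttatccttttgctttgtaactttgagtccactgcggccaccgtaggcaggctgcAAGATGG
Mrpl47 (chr3:32736726-32736925, minus strand): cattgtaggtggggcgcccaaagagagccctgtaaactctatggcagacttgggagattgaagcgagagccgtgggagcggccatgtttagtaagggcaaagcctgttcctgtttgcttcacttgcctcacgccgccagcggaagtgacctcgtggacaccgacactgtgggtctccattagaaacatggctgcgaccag

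All 78 genes were well above the low end of the range in both libraries, with 78 of 78 at 5 or more in each. With the empty vector the levels ran from 6.37 (Mrpl23) to 170.7 (Mrpl52), with a median of 42.5. With Ascl2 they ran from 6.10 (Mrpl23) to 165 (Mrpl52), with a median of 35.5. For scale, the median of the 12283 genes that reached 1 in either library, called kept genes below, was 12.8 and 12.9. The levels of 74 members lay above that median with the empty vector and those of 72 with Ascl2. Most of the proteins are needed in equal or nearly equal numbers in the particle. Yet the highest level was 26.8 times the lowest with the empty vector and 27.1 times with Ascl2. The lowest value, that of Mrpl23, is uncertain, as described below. Most genes were closer together, since 56 of 78 lay within 2-fold of the members' median with the empty vector and 58 with Ascl2.

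Below, pairs of values give the empty vector first and Ascl2 second, with the log2 ratio in parentheses where one follows. The order of the levels was nearly the same in both libraries. Across the 78 genes the log2 levels of the 2 libraries had a Pearson r of 0.97 and a Spearman rho of 0.95, over points that share the same libraries and scaling. Among the large subunit genes the highest were Mrpl52 (170.7 and 165), Mrpl30 (115 and 107), Mrpl33 (119 and 83.3), Mrpl54 (105 and 83.3) and Mrpl42 (98.7 and 71.2). The lowest were Mrpl23 (6.37 and 6.10), Mrpl11 (7.29 and 6.44) and Mrpl19 (9.83 and 8.86). Among the small subunit genes the highest were Mrps21 (143 and 126), Mrps15 (150 and 105), Mrps16 (101 and 88.6), Mrps7 (61.5 and 55.8) and Mrps18c (63.7 and 49.5). The lowest were Mrps25 (14.1 and 11.3), Mrps31 (16.2 and 14.2) and Mrps11 (18.6 and 13.3). With no replicate, it is not known which neighbours in this order differ beyond error. For Mrpl23 and Mrps36 a pseudogene was listed too, Mrpl23-ps1 at 4.47 and 3.21 and Mrps36-ps2 at 0.914 and 1.99, and how reads were split between gene and copy is uncertain.

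**Figure D1:**
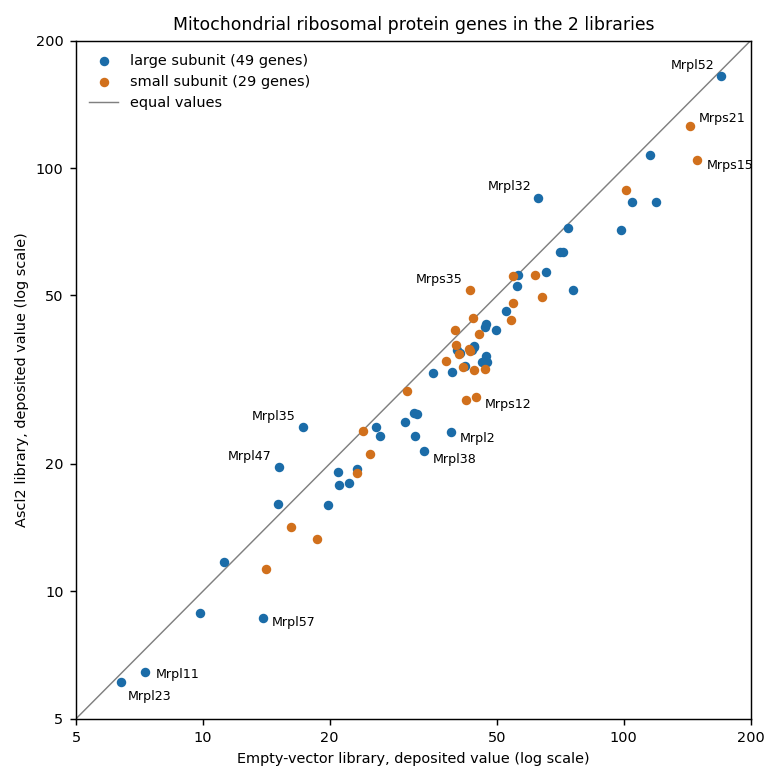
Deposited value of each of the 78 genes in the empty-vector library (x axis, log scale) and the Ascl2 library (y axis, log scale), 1 point per gene, with large subunit genes in blue and small subunit genes in orange. Most points lie just below the line of equal values, while Mrpl32, Mrpl35, Mrpl47 and Mrps35 lie above it.

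The main comparison set the Ascl2 library against the empty vector, and most of these genes were slightly lower with Ascl2. The log2 ratio, taken as Ascl2 over empty vector after adding 1 to both values, was below 0 for 69 of 78 members, against 51.6% of all 12283 kept genes. Its median was −0.19, with the middle 50% of the genes between −0.30 and −0.10, where the median of all kept genes was −0.01. Among the 7840 kept genes whose mean level lay within the members' range, 53.7% had a ratio below 0 and the median was −0.03. The differences were small. Only 4 of 78 were at least 1.5-fold lower, against 4.31% of kept genes (3.49% within the level range), and 0 were at least 1.5-fold higher, against 5.01% (3.0% within the range). The share of 5.13% past 1.5-fold downward was near that background. None was 2-fold lower or higher, where 0.716% and 1.53% of kept genes were. Past a ratio of 5 to 4, 18 were lower and 3 higher, against 15.7% and 14.2%.

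Added up, the 78 genes came to 3689 and 3184, which are 0.491% and 0.417% of each library's total. Abundances are relative, and other genes took more of the Ascl2 library. Immunoglobulin genes were 5.50% and 9.52% of the total, and the protocadherin gene Pcdh15 was 0.0641% and 3.40%. Whether these shares bear on the members' lower sum was not tested. With both libraries set to the same sum over kept genes without variable segments and without the 10 genes of largest change, the members' median was −0.11 and 60 of 78 were below 0, while the median of all kept genes was 0.06 and 41.6% were below 0. The members' median was then 0.17 lower than that of all kept genes, where it was 0.18 lower with the values as deposited. In such bulk samples fewer cells of a kind and less RNA per cell cannot be told apart.

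The large and small subunits hardly differed from each other. The median log2 ratio was −0.20 over 49 large subunit genes, with the middle 50% between −0.29 and −0.10, and 44 of 49 were below 0. It was −0.19 over 29 small subunit genes, with the middle 50% between −0.30 and −0.11, and 25 of 29 were below 0. The ranges overlapped almost fully, from −0.68 to 0.48 for the large and from −0.61 to 0.25 for the small subunit. The difference of the medians, large minus small, was −0.02, and 0.03 with the trend with genomic span (below) removed, so no direction is read from it. The levels also stood in about the same relation in both libraries. The median level was 40.8 for large and 43.1 for small subunit genes with the empty vector, a ratio of 0.945, and 34.7 and 36.9 with Ascl2, a ratio of 0.941. By geometric mean these ratios were 0.866 and 0.876, so no direction between the libraries is read from them.

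**Figure D2:**
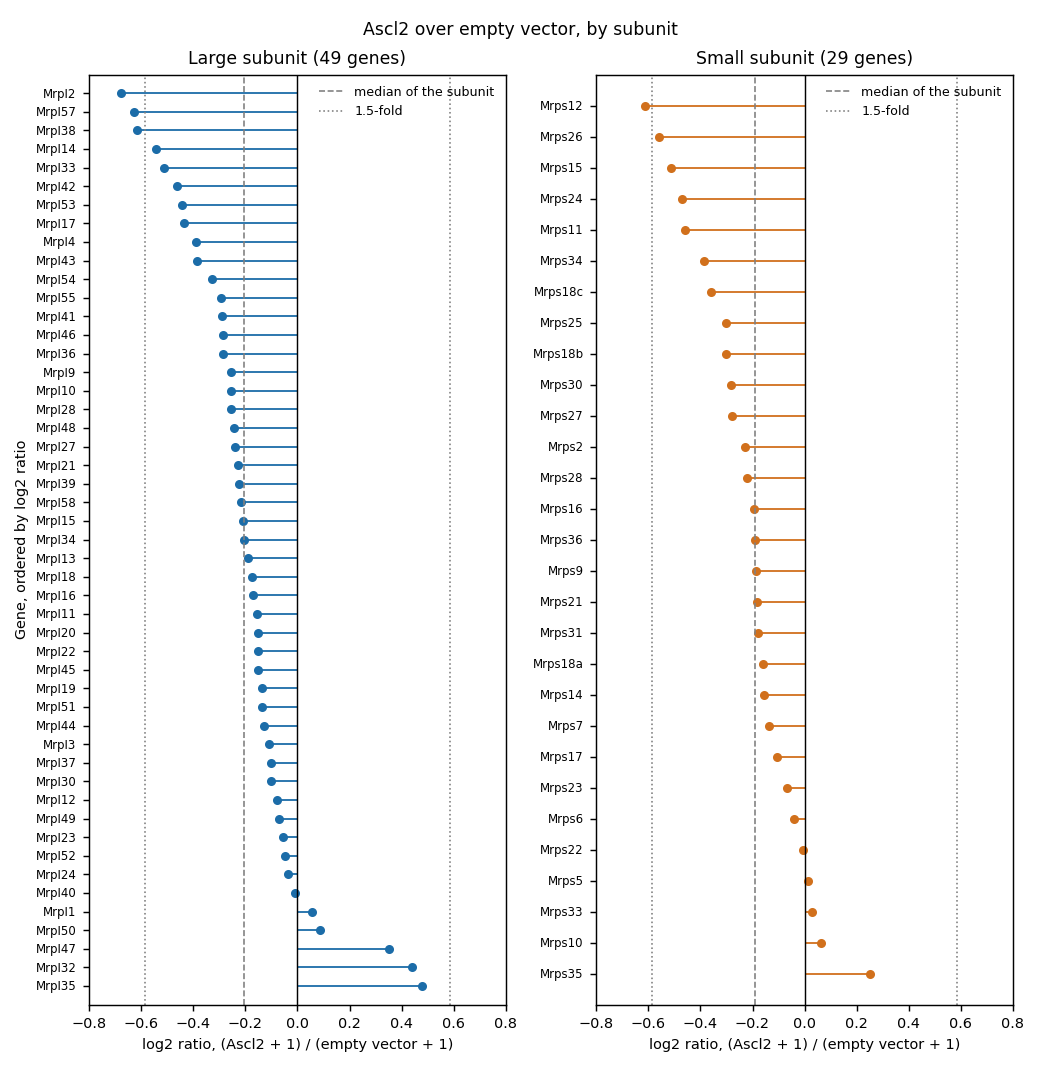
The log2 ratio of each gene (x axis, Ascl2 plus 1 over empty vector plus 1), with genes ordered by ratio on the y axis, large subunit on the left and small subunit on the right. Dashed lines are the subunit medians of −0.20 and −0.19 and dotted lines mark 1.5-fold, which 4 genes pass downward and none upward.

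The letter in the symbol does not always give the subunit. In the mammalian particle the proteins of Mrps30 and Mrps18a sit in the large subunit, and that of Mrps36 is now known as a part of the oxoglutarate dehydrogenase complex. With these moved or left out, the medians were −0.20 over 51 large and −0.19 over 26 small subunit genes. Mrps30 was 41.4 and 33.8 (−0.28), and Mrps36 was 42.8 and 37.4 (−0.19). Mrps18a, Mrps18b and Mrps18c are paralogs related to 1 bacterial protein. Mrps18a was 45.3 and 40.5 (−0.16), Mrps18b 54.0 and 43.7 (−0.30) and Mrps18c 63.7 and 49.5 (−0.36), each lower with Ascl2.

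Large subunit genes are given here by the place of their proteins in the ribosome, as examples rather than full lists. Mrpl2, whose bacterial counterpart lies beside the peptidyl transferase centre, was 38.8 and 23.8. Its log2 ratio of −0.68 was the lowest of all 78 members. Mrpl3, another protein of the core, was nearly level at 40.2 and 37.2 (−0.11). Mrpl4 was 45.97 and 34.8 (−0.39), and Mrpl14, at the face toward the small subunit, was 75.7 and 51.6 (−0.54), so genes of bacterial descent spanned much of the members' range. Of the stalk that recruits the translation factors, Mrpl10 was 31.7 and 26.4 (−0.25), Mrpl11 7.29 and 6.44 (−0.16) and Mrpl12 55.8 and 52.7 (−0.08). Mrpl12 is present in several copies per ribosome, and its level was the highest of the 3 in both libraries.

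Around the exit of the nascent chain, Mrpl22 was 46.8 and 42.0 (−0.15), and Mrpl24 was 73.8 and 72.0 (−0.03). Mrpl45, which helps to hold the ribosome at the inner membrane, was 40.8 and 36.6 (−0.15). Mrpl17 was lower, at 47.4 and 34.7 (−0.44). Mrpl47 went the other way, at 15.2 and 19.6 (0.35), so genes of the tunnel exit did not share a direction. In the central protuberance, which contacts the small subunit, Mrpl38 was 33.5 and 21.5 (−0.62), Mrpl46 22.2 and 18.01 (−0.29) and Mrpl48 23.2 and 19.4 (−0.24). Mrpl40 of the same region was 56.1 and 55.8 (−0.01). Mrpl58, which descends from a peptide release factor and became a structural protein there, was 44.1 and 37.8 (−0.22).

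Other proteins of the large subunit stood at both ends. Mrpl57, a short mitochondria-specific protein, was 13.9 and 8.62 (−0.63), one of the 4 genes past 1.5-fold. Mrpl33 was 119 and 83.3 (−0.51), Mrpl42 98.7 and 71.2 (−0.46) and Mrpl53 31.9 and 23.2 (−0.44). At the other end Mrpl32, which the inner membrane m-AAA protease trims before it joins the ribosome, was 62.6 and 85.2 (0.44). Among the 49 large subunit genes it moved from place 11 to place 3 by level. Mrpl35 had the highest ratio of all members, at 17.3 and 24.4 (0.48), and moved from place 42 to place 33. Mrpl1 was 11.2 and 11.7 (0.06) and Mrpl50 was 15.1 and 16.1 (0.09), so these 2 and the 3 with the highest ratios were the only large subunit genes above 0.

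Small subunit genes are given in the same way. Mrps12, whose bacterial counterpart lies at the decoding site and sets accuracy, was 44.5 in the first library and 28.7 with Ascl2, a log2 ratio of −0.61. Mrps24, the counterpart of a bacterial protein at the channel through which the message enters, was 46.9 and 33.6 (−0.47). Mrps5, another protein of the entry site, did not follow at 43.9 and 44.3 (0.01). Mrps15 and Mrps11, both of the platform side, were 150 and 105 (−0.51) and 18.6 and 13.3 (−0.46). Mrps7 of the head was 61.5 and 55.8 (−0.14). Among the mitochondria-specific members Mrps26 was 42.2 and 28.3 (−0.56), and Mrps34 was 43.97 and 33.4 (−0.39). Mrps35 had the highest ratio of the small subunit at 43.1 and 51.5 (0.25). Besides Mrps35 and Mrps5, the small subunit genes above 0 were Mrps33, at 54.5 and 55.6 (0.03), and Mrps10, at 39.6 and 41.5 (0.06).

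Across all kept genes short genes had lower log2 ratios than long ones, and these are short genes. The median span was 7.69 kb for the members and 20.1 kb for kept genes with a known span, and 55 of 78 members (70.5%) were under 10 kb, against 29.9% of those genes. Among genes under 5 kb other than variable segments the median ratio was −0.19 over 1696 genes, and it was −0.25 over 25 members of that length. From 5 to 10 kb it was −0.11 over 1413 other genes and −0.22 over 30 members, and from 10 to 20 kb −0.05 over 2249 and −0.15 over 13. The 4 members from 20 to 50 kb had a median of −0.15 where 3049 other genes had 0.01, and the 6 members of 50 kb or more had −0.20 where 2608 had 0.07. The members' median was thus the lower one in each of the 5 length classes, over few members in the longest. With the trend removed, as the median of the gene and its 250 neighbours on either side in order of span, the members' median was −0.11 and 58 of 78 were below 0, against 49.8% of the 11314 genes with a span. No member was then 1.5-fold lower, and Mrpl32 was 1.5-fold higher, with a ratio of 0.61. The share of all genes past 1.5-fold with the trend removed was not computed, so these counts have no background. What underlies the relation with span was not tested.

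**Figure D3:**
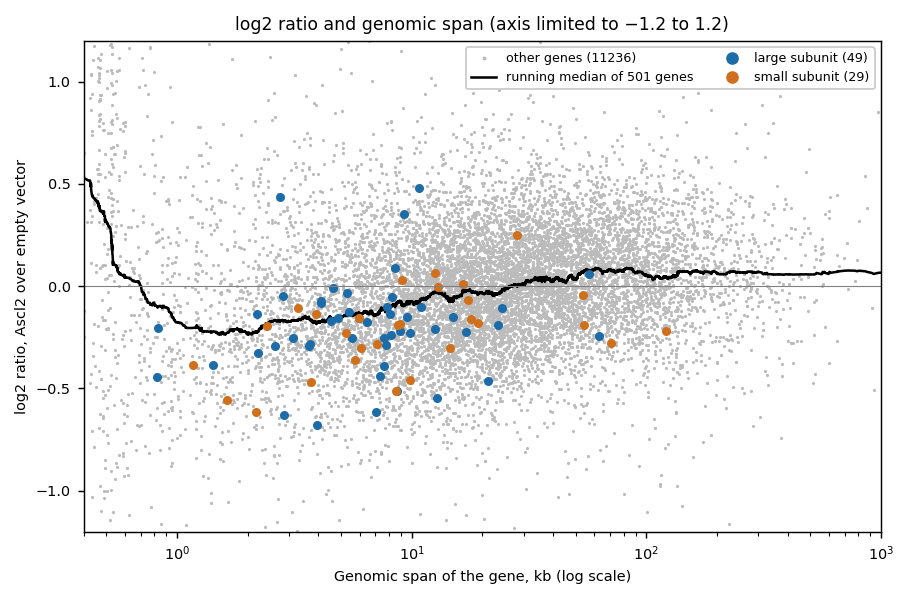
The log2 ratio (y axis, limited to the middle of its range) of each kept gene against its genomic span in kb (x axis, log scale), with other genes in grey, large subunit genes in blue, small subunit genes in orange and the running median in black. The black line lies below 0 for genes of about the members' length and above 0 for long genes, and 58 of the 78 members lie below it.

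Neighbouring starts and promoter letters were read from the RefSeq promoter table, which held 69 of the 78 members. Of these, 23 (33.3%) had the start of another gene on the opposite strand within 500 bases upstream, against 19.3% of 8629 kept genes in the table. Mrps11 and Mrpl46, which share such a start region, were both lower with Ascl2 (log2 ratios −0.46 and −0.29). Of 20 pairs with a partner that is a kept gene outside the family, 16 members and 12 partners had a ratio below 0. Of all kept genes 51.6% did. The medians were −0.20 for these members and −0.06 for the partners. Mrps12 shares its start region with Sars2, a mitochondrial seryl-tRNA synthetase gene at 10.4 and 7.89 (−0.36), lower like its neighbour. Mrpl2 shares one with Klc4, a kinesin light chain gene at 4.95 and 3.98 (−0.26). Other low members had a partner slightly above 0. Beside Mrpl57 (−0.63), the kinetochore gene Ska3 was 11.5 and 12.1 (0.08), and beside Mrpl14 (−0.54), Tmem63b was 24.3 and 24.8 (0.02). Among the 3 members with the highest ratios, Mrpl35 had no such partner. Psma2, a proteasome gene beside Mrpl32, was 175.3 and 174.7 (−0.01). Ndufb5, a complex I gene beside Mrpl47, was 117 and 82.5 (−0.50), the opposite direction from Mrpl47.

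The motifs were searched on both strands of the 300-base windows. The ETS letters CCGGAAG, bound by the GABP factor among others, were in 26 of 69 members (37.7%), against 22.2% of kept genes and 9.93% of all 27025 genes in the table. The YY1 letters AAGATGG were in 13 (18.8%), against 8.92% and 7.28%. The NRF1 core, the 10 letters in capitals in the Mrpl32 sequence, was in 3 (4.35%), against 2.60% and 1.07%. The E-box letters CACGTG, the form bound by Myc, were in 5 (7.25%), against 12.2% and 8.09%. The letters CAGCTG, an E-box form bound by Ascl factors, were in 11 (15.9%), against 17.0% and 18.3%. The median log2 ratio was −0.19 both for the 11 members with CAGCTG and for the 58 without it. It was −0.22 for the 26 with CCGGAAG and −0.16 for the 43 without. For CACGTG it was −0.28 for 5 with and −0.19 for 64 without, and for AAGATGG −0.16 for 13 and −0.19 for 56. For the NRF1 core it was −0.22 for 3 with and −0.19 for 66 without. In the 6 sequences above, Mrps12 carries CCGGAAG just after its start, Mrpl35 AAGATGG and Mrps11 its reverse, and Mrpl2 CACGTG, while Mrpl47 carries none. A match is a description of letters and says nothing of binding.

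Other genes of the mitochondrial translation system were described from lists of known components. For these and the lists that follow, 51.6% of all kept genes were below 0, 4.31% at least 1.5-fold lower and 5.01% higher. The 5 measured ribosomal proteins with other kinds of symbols had a median of −0.09, with 4 of 5 below 0. The lowest was Gadd45gip1 at 30.3 and 23.8 (−0.33), and Ptcd3 was 35.2 and 37.8 (0.10). The 15 translation factors had a median of 0.08 and 6 were below 0. The elongation factor genes Tufm (50.6 and 36.0, −0.48), Tsfm (24.3 and 17.8, −0.43) and Gfm1 (29.995 and 23.2, −0.36) were lower with Ascl2. Slirp, which with Lrpprc stabilises mitochondrial messenger RNAs, was 11.7 and 31.8 (1.38) and the only gene of these lists at least 2-fold higher.

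Assembly and RNA modification factors had a median of −0.02, with 15 of 28 below 0 and 2 at least 1.5-fold lower. These were Malsu1, which keeps the subunits apart during assembly, at 14.2 and 7.40 (−0.85), and Rbfa, a maturation factor of the small subunit, at 33.9 and 22.1 (−0.60). The 20 mitochondrial tRNA synthetase and amidotransferase genes had a median of −0.07, with 15 below 0 and none past 1.5-fold. Fars2 was 12.5 and 9.45 (−0.37) and Nars2 was 3.91 and 5.87 (0.48). Genes that copy, transcribe and process the mitochondrial genome had a median of −0.09, with 11 of 21 below 0. Tbrg4 was the only one of them past 1.5-fold, at 56.6 and 37.04 (−0.60), and Polrmt, the RNA polymerase, was 11.2 and 7.90 (−0.45).

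The mitochondrial genome has 13 protein-coding genes, whose messenger RNAs this ribosome translates. All 13 were measured, 3 were below 0 and the median log2 ratio was 0.07. They made up 12.8% and 12.96% of the library totals. mt-Atp8 alone was 33476 of their sum of 96333 with the empty vector and 32937 of 98994 with Ascl2. mt-Nd4l was 58.4 and 41.9 (−0.47), the lowest ratio, and mt-Atp6 was 225 and 325 (0.53), the highest. Other genes of the 13 stood far above these levels with ratios near 0, such as mt-Nd4 at 2410 and 2492 (0.05) and mt-Atp8 (−0.02). How reads were assigned among these genes is not given in the sources used here, so single values are uncertain. mt-Nd5 was 3315 and 3839 (0.21). mt-Nd6, at 5513 and 6859 (0.32), is read from the other strand than its neighbours, and as the strand setting is not given in the sources used here, its value is uncertain.

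Other nuclear gene groups with products in mitochondria or ribosomes had medians like that of the members. Their counts stand beside 51.6% of all kept genes below 0, 4.31% at least 1.5-fold lower and 5.01% higher. Nuclear respiratory chain genes had a median of −0.23, with 60 of 79 below 0, 7 at least 1.5-fold lower and 1 higher. That list was matched by symbol and also holds ATP synthase genes and the pseudogene Atp5l2-ps, at 1.76 and 0.959 (−0.49). Cytoplasmic ribosomal protein genes had a median of −0.25, with 61 of 79 below 0, 6 at least 1.5-fold lower and 1 higher. Rpl34, at 3159 and 5307 (0.75), was the highest. Import genes had a median of −0.28, with 19 of 25 below 0 and 4 at least 1.5-fold lower, among them Timm13 at 36.1 and 20.9 (−0.76). Matrix chaperone and protease genes had a median of −0.14, with 8 of 11 below 0. With the span trend removed the medians were −0.13 for the respiratory chain, −0.07 for the cytoplasmic ribosome and −0.15 for import, beside −0.11 for the members. The log2 ratios of the members were less spread than those of the 2 larger groups, with an SD across genes of 0.22 against 0.28 and 0.29. None of this sets the members apart from these groups.

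**Figure D4:**
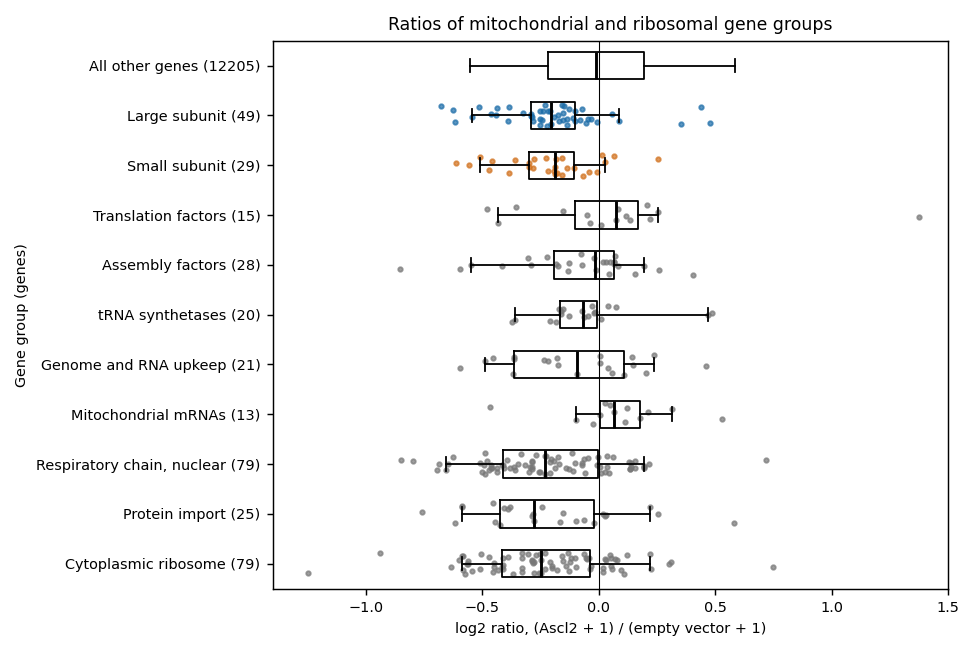
The log2 ratio (x axis) of each gene in the 2 subunits and in related gene groups, 1 point per gene, with the number of genes in parentheses. Boxes show the middle 50% and the median, and whiskers run from the 5th to the 95th percentile. The subunits, the nuclear respiratory chain, import and the cytoplasmic ribosome have medians between −0.28 and −0.19, while mitochondrial messenger RNAs and translation factors lie slightly above 0.

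Among 11 nuclear regulators with a row, 10 were kept, 8 of these were below 0 and none passed 1.5-fold. The coactivator gene Pprc1 was 17.6 and 11.9 (−0.53) and the nuclear receptor gene Esrra was 10.9 and 7.25 (−0.53). Max, the partner of Myc, was 49.2 and 40.5 (−0.28). Nrf1 was 32.0 and 27.0 (−0.24). Gabpa, which encodes the DNA-binding subunit of GABP, was 38.1 and 34.5 (−0.14). Of its partner subunits, Gabpb1 was 37.1 and 35.7 (−0.06), and Gabpb2 was 21.8 and 28.2 (0.36), the highest ratio of the kept regulators. Yy1 was 49.8 and 51.7 (0.05) and Ppargc1b was 1.004 and 0.936 (−0.05). Myc was 84.3 and 75.7 (−0.15). Ppargc1a was under 1 in both libraries, at 0.456 and 0.817. Whether these values bear on those of the members was not tested.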

How the data were processed

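The authors deposited 1 table per RNA library that holds 1 signal for each gene. The sources used here name neither its unit nor the quantifier, the annotation or the strand setting. Per the submitters' processing notes, mm10, Trim Galore, Bowtie2, Picard and MACS2 were used, with no role stated. Total RNA was extracted with Trizol, per the labels' protocols.

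Count models were not applied. Absolute depth is unknown, and among 1842 genes under 1.2 in both libraries the ratios of low values clustered at 1.14, Ascl2 over empty vector, in 27 genes against a median of 9 in nearby intervals. What sets this step was not tested. Log2 ratios used a pseudocount of 1, which understates differences of low genes. Genes reaching 1 in either library were kept. Spans and starts came from RefSeq tables on GRCm38.p6, matched by symbol. Members and lists were chosen with earlier results of these data known, so they give no independent support. Any member may be named, among them the 8 highest and 8 lowest ratios, the 5 highest and 3 lowest levels of each subunit and every member past 1.5-fold. Genes named from the lists are up to 4 per list with the largest ratio in size that reach 5, and any past 2-fold. Besides these, mt-Atp8, mt-Nd4 and Atp5l2-ps are named to describe their lists. For the regulators, all may be named. One item that this rule would name is not reported here. Neighbours at shared starts and the proteins picked by place in the ribosome, were chosen after their values were seen. The steps were tested on simulated data. Python 3.11.15, pandas 2.3.3, numpy 2.4.6, scipy 1.17.1 and matplotlib 3.10.9 were used.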

Additional observations from a re-analysis of the deposited data

How the results depend on the processing

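No paired analysis was possible because there was 1 library per group, and no library could be left out. The medians and the count below 0 were recomputed with a pseudocount of 0.1 or 5, without a filter or with one at 5, under 3 rescalings, removal of the trends with span and with level, and subunits taken from structure. A median was taken as moved past 0.05. The members' median was negative under every one of these. With equal sums without variable segments and the 10 genes of largest change it was −0.11, with −0.12 for the large and −0.11 for the small subunit. With the span trend removed it was −0.11, with −0.10 and −0.14. The same trend computed without variable segments, an alternative chosen after seeing the data, gave −0.11, −0.0908 and −0.14, and a large minus small difference of 0.0447. The count at least 1.5-fold lower was 4, but 1 with a pseudocount of 5, 1 with the rescaling above, 3 with the trend with level removed, and 0 with either span trend removed. It was 18 past a ratio of 5 to 4 and 0 at 2-fold, against 15.7% and 0.716% of kept genes. The count at least 1.5-fold higher was 0, but 1 with either span trend removed and 3 past a ratio of 5 to 4, the last against 14.2%. Shares of all kept genes past 1.5-fold were not computed under the changed settings. The count below 0 ran from 58 of 78 with the span trend removed to 70 with equal sums over kept genes. The shares of kept genes below 0 were then 49.8%, of those with a span, and 54.9%. With the rescaling above the count was 60, against 41.6%. It was 67 of the 76 members other than Mrpl23 and Mrps36, a second alternative chosen after seeing the data. The cause of these shifts was not tested. Mrpl2, Mrpl57, Mrpl38 and Mrps12 stayed below 0 in each setting run. They were picked for their low ratios in these same data, so this gives no separate support. Unknown depth and single libraries limit what small differences can show.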
